A study of Mus musculus with 18 samples.

Results

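Epididymal white adipocytes of aged mice (18 months) were set against those of adult mice (6 months) by whole-transcript arrays. The comparison used 6 of the 18 arrays of the series, 3 at each age, and its members were chosen from the labels alone, which call the cells peripheral adipocytes where the study's methods call them epididymal. All animals were male C57BL/6J mice without a transgene, a deletion or a drug, kept on standard chow under a fixed cycle of light and dark. Each array was hybridized with a pooled RNA preparation, the 3 pools of a group came from 6 to 10 animals, and how the animals were divided among the pools is not given in the sources used here. Fat was digested with collagenase and the adipocytes were collected because they float, with no sort by a surface marker. The other arrays hold epididymal adipocytes of 14 months and bone marrow adipocytes of the same mice at each age, and they enter below only where they show how the 18-month change differs.

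White adipocytes store fatty acids as triglyceride, release them by lipolysis, and secrete hormones such as leptin and adiponectin. They build part of their fatty acids from acetyl-CoA and hold much of the body's free cholesterol, and the SREBP transcription factors drive both routes of synthesis. Fat tissue also contains macrophages, endothelium, mesothelium and fibroblastic progenitors, which leave their own transcripts in any adipocyte preparation that is not sorted. Immediate early genes and NF-kB targets are transcribed within a short time of a stimulus to a cell.

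Values are log2 signals, so a difference of 1 is a doubling, and they are given below in the order of replicates 1 to 3. A gene was called when the adjusted p of its 18-month against 6-month difference was under 0.05 in limma, with the Benjamini-Hochberg adjustment over all 23410 probe sets that name a gene. Of 19938 genes with a probe set of their own, 3216 (16.1%) were called, 1606 higher at 18 months (8.05%) and 1610 lower (8.08%). These percentages are the background for the counts of each gene list. Of the probe sets 16.2% were called, 8.22% higher and 8.01% lower. At least a doubling was reached by 160 genes called higher (0.802%) and 313 called lower (1.57%). The median log2 fold change over all genes was -0.06, and the median size of a called change was 0.61.

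The 18-month arrays lay close together, at root mean square distances of 0.18 to 0.20 on the log2 scale, against 0.25 to 0.33 among the 6-month arrays and 0.39 to 0.50 between the ages. On the first principal component of these 6 arrays (67.1% of the variance) the ages were apart. On the next (14.9%) 6-month replicate 1 scored 30.47 and all the others lay between -14.87 and -0.63. The array medians over all probe sets were 5.51 to 5.60 at 6 months and 5.33 to 5.39 at 18 months. The split of the calls depended on how this shift was scaled. Of the called probe sets 50.6% were higher at 18 months on the values as deposited, 80.8% after centring each array on its median, 63.1% after repeated quantile normalization and 60.1% after centring on ribosomal protein genes. The median over all probe sets that name a gene moved with the scaling from -0.06 to 0.12, 0.06 and -0.01 in the same order, and fold changes below are to be read against that shift.

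The array that stood apart carried transcripts of granulocytes. Ngp, a neutrophil granule protein, was at 10.76, 5.72 and 5.18 at 6 months and at 8.41, 8.12 and 9.11 at 18 months. S100a8, an alarmin of the same cells, was at 9.71, 5.21 and 5.35 at 6 months and at 7.82, 7.42 and 7.62 at 18 months. In both genes 6-month replicate 1 was above all 18-month arrays and the other 6-month arrays were below all of them. None of the 15 neutrophil markers was called, and their median was -0.11 (0.08 after median centring). Without 6-month replicate 1, 10 of the 15 were called higher and the median was 1.02. The same array was the highest of the 6 for Mki67, a proliferation marker, at 7.73 against 6.04 and 5.30 in the other 6-month arrays and 5.79 to 6.03 at 18 months. Lcn5, a secretory gene of the epididymis, was highest in 6-month replicate 2 (6.48, against 4.17 to 4.93 in the other 5 arrays), and none of the 11 epididymis and testis markers was called (3 were called lower without 6-month replicate 1). List counts below are also given without 6-month replicate 1 where they moved by more than 1.5 times and by more than 1 gene, a comparison added after the data were seen.

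The preparations held the transcripts of mature adipocytes at both ages. The median over 23 adipocyte markers was 12.24 to 12.27 in the 6-month arrays and 12.31 to 12.44 in the 18-month arrays, and the lowest of the 23 was Cidea, a lipid droplet protein of brown fat, at a mean of 5.60 at 6 months. Adipoq, which encodes adiponectin, was at 12.51, 12.58 and 12.59 at 6 months and at 12.87, 12.77 and 12.62 at 18 months (log2 fold change 0.19, SE 0.29, adjusted p = 0.703). Plin1, the protein that coats the lipid droplet, differed by 0.07 (adjusted p = 0.881), and Lep, which encodes leptin, by 0.15 (adjusted p = 0.674). Of the 23 markers 2 were called higher and 1 lower, with a median of 0.15 (6 higher after median centring, 1 after ribosomal centring or without 6-month replicate 1). Ucp1, the uncoupling protein of brown fat, was near 5 on every array and differed by -0.04 (adjusted p = 0.874).

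**Figure D1:**
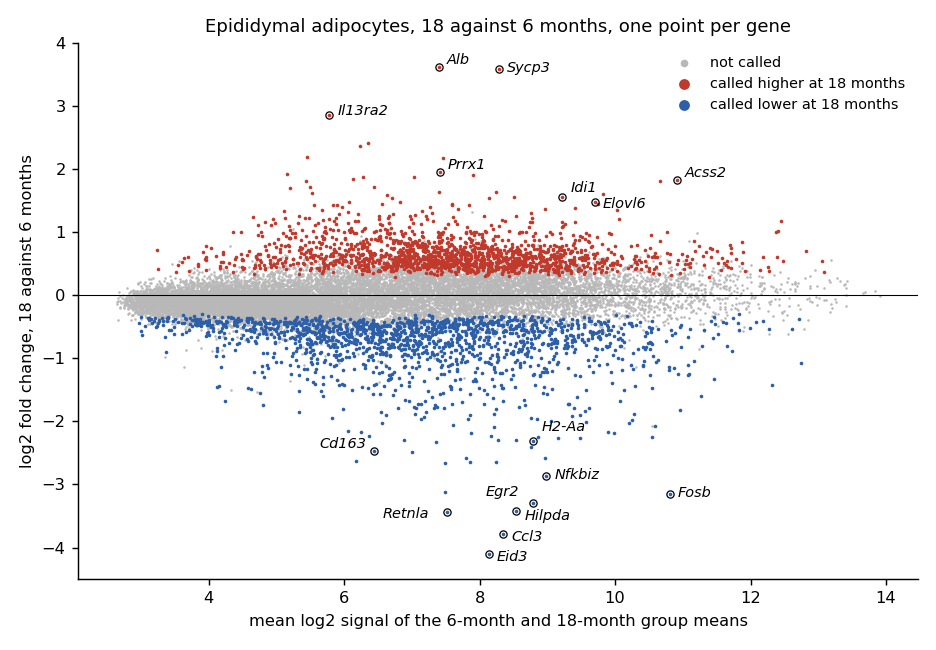
Each point is a gene of the 19938 tested, with the mean of the 6-month and 18-month group means on the x axis (log2 signal) and the log2 fold change, 18 against 6 months, on the y axis. Genes called higher (1606) and lower (1610) are in color, genes that were not called are gray, and circled genes are named in the text.

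Alb, Sycp3 and Il13ra2 had the largest rises. Alb, which encodes serum albumin, was at 5.68, 5.50 and 5.58 at 6 months and at 9.22, 9.24 and 9.17 at 18 months (log2 fold change 3.62, SE 0.15, adjusted p = 8.52e-11). Sycp3, a component of the axis that pairs meiotic chromosomes, went from 6.81, 6.48 and 6.18 to 10.38, 9.88 and 9.99, a change of 3.59 (SE 0.20, adjusted p = 2.34e-09). Il13ra2, a decoy receptor for interleukin 13, went from 4.40, 4.32 and 4.34 to 7.33, 7.08 and 7.22, a change of 2.86 (SE 0.25, adjusted p = 3.65e-07). In each of these genes the lowest array of 18 months was far above the highest of 6 months. They were followed by Nxf3 (2.41), Ct55 (2.36), Cdkl4 (2.19), the transferrin receptor Tfr2 (2.18), the mesenchymal homeobox gene Prrx1 (1.95), the nicotinic receptor subunit Chrna5 (1.93), the ferroxidase-like gene Hephl1 (1.88), Sorbs2 (1.87), Prune2 (1.84), Acss2 (1.83), Rpph1 (1.81) and the glycine decarboxylase Gldc (1.81). A second probe set of Prune2 gave 1.90. Tfr2, Prrx1, Sorbs2 and Rpph1 were already above the 6-month level at 14 months, by 1.28 to 2.07, whereas Alb, Il13ra2, Ct55, Chrna5 and Hephl1 were within 0.36 of it.

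Eid3, Ccl3 and Retnla had the largest falls. Eid3, an inhibitor of transcriptional coactivators, was at 9.74, 10.33 and 10.51 at 6 months and at 5.57, 6.17 and 6.52 at 18 months (-4.11, SE 0.34, adjusted p = 2.03e-07). Ccl3, a chemokine for monocytes and T cells, was at 10.38, 10.22 and 10.13 and then at 6.48, 6.44 and 6.43 (-3.79, SE 0.18, adjusted p = 2.82e-10). Retnla, a resistin-like protein of fat and of alternatively activated macrophages, was at 9.58, 8.99 and 9.14 and then at 6.21, 5.44 and 5.77 (-3.43, SE 0.21, adjusted p = 6.27e-09). No array of 18 months reached the level of a 6-month array in any of them. Hilpda, a lipid droplet protein that inhibits the lipase ATGL, was at 10.08, 10.30 and 10.36 and then at 6.68, 6.81 and 7.02 (-3.41, SE 0.23, adjusted p = 2.03e-08). The others were Egr2 (-3.29), Fosb (-3.15), the aggrecanase Adamts4 (-3.11), Nfkbiz (-2.86), Marcksl1 (-2.66), Lilr4b (-2.65), Fabp9 (-2.65), Cd14 (-2.62), Apold1 (-2.59), Cxcl2 (-2.58) and the inducible cyclooxygenase Ptgs2 (-2.48). Fabp9 is a close relative of the abundant Fabp4, and hybridization between them was not tested. Hilpda, Eid3, Ccl3 and Adamts4 were as low at 14 months, at means within 0.47 of those at 18 months, while Retnla was at 10.75, 10.77 and 10.88 there, above both other ages.

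**Figure D2:**
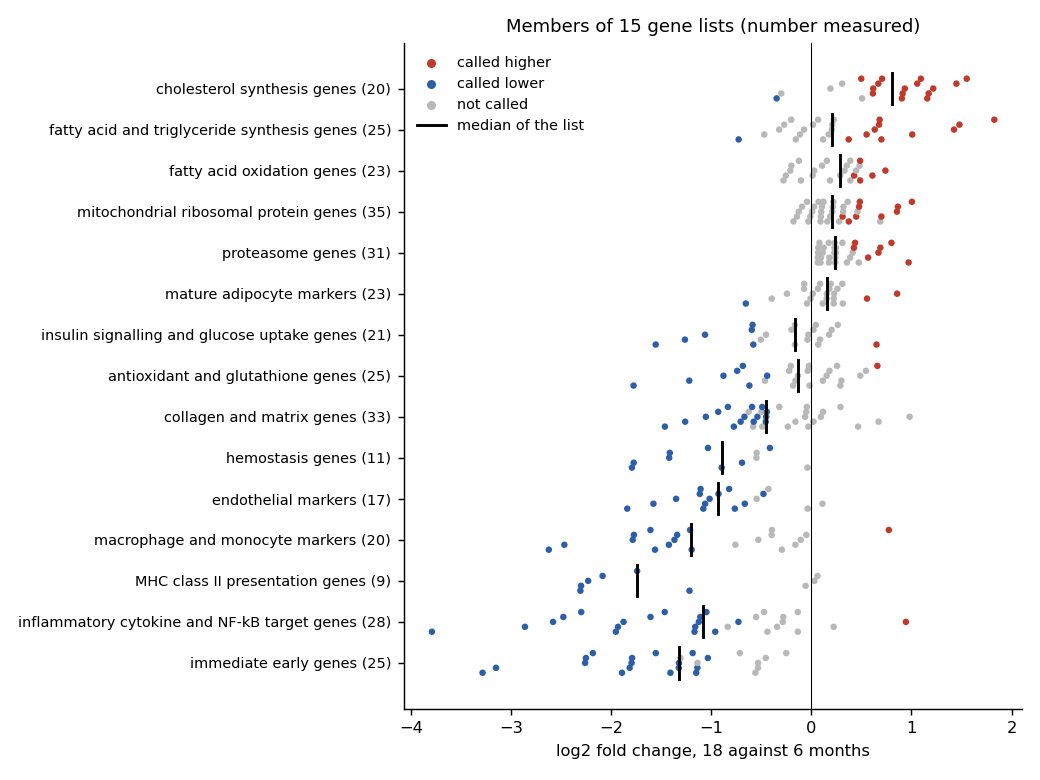
Log2 fold changes, 18 against 6 months, of the measured members of 15 gene lists, one point per gene, with the number measured in brackets and a black bar at the median of the list. Cholesterol synthesis genes sit to the right of 0 (median 0.81), and MHC class II, immediate early, macrophage and cytokine genes to the left (medians -1.74, -1.32, -1.20 and -1.08).

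Cholesterol synthesis was the list with the highest median. Of its 20 measured genes 15 were called higher at 18 months and 1 lower (background 8.05% and 8.08%), with a median of 0.81 against -0.06 over all genes, and the counts were 16 and 0 without 6-month replicate 1. They stood at 17 and 0 after median centring, 15 and 0 after ribosomal centring and 14 and 1 after repeated quantile normalization. The arrays of 18 months were above all those of 6 months in 18 of the 20 (background 18.5%). Idi1, which interconverts the isoprenoid building blocks, was at 8.88, 8.32 and 8.12 at 6 months and at 10.10, 9.95 and 9.93 at 18 months, a rise of 1.55 (SE 0.23, adjusted p = 0.000164), and its other probe set gave 1.67. Nsdhl, a decarboxylating dehydrogenase of the late pathway, was at 9.31, 9.08 and 8.66 and then at 10.44, 10.45 and 10.51, a rise of 1.45 (SE 0.15, adjusted p = 3.21e-06). Msmo1, the methylsterol oxidase before it, was at 9.67, 9.33 and 9.35 and then at 10.69, 10.68 and 10.63, a rise of 1.22 (SE 0.22, adjusted p = 0.000784). For all 3 the 18-month arrays lay within 0.17 of each other, and the ages did not overlap.

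Calls ran along the whole pathway. In the mevalonate part the mevalonate kinase Mvk rose by 0.93 and Fdps, which makes farnesyl diphosphate, by 1.09 (adjusted p = 3.16e-05). The calls of Pmvk (0.61) and Mvd (0.50) were lost when most single arrays were left out. The adjusted p of Pmvk was 0.0294 without 6-month replicate 1 but 0.082 to 0.166 without any other array. That of Mvd was 0.0339 without 6-month replicate 1 and 0.0343 without 18-month replicate 3, but 0.0945 to 0.219 without 6-month replicate 2 or 3 or 18-month replicate 1 or 2. In the sterol part Sqle rose by 0.91, Lss, which closes the sterol rings, by 1.16 (adjusted p = 4.65e-05), Cyp51 by 0.90, Tm7sf2 by 1.06, Hsd17b7 by 0.71, Sc5d by 0.62 and Dhcr7 by 0.67. Insig1, the membrane anchor that retains SREBP precursors when sterols are plentiful, was at 12.09, 11.72 and 11.76 and then at 13.04, 12.997 and 13.05, a rise of 1.17 (SE 0.17, adjusted p = 0.00012). Ebp, a sterol isomerase, was the member called lower (-0.35, adjusted p = 0.039), a call that was lost without any of the 6 arrays, with an adjusted p from 0.0563 without 18-month replicate 2 to 0.142 without 18-month replicate 3. The members that did not pass were Hmgcs1 (0.31), Fdft1 (0.19), Stard4 (0.51) and Srebf2, the transcription factor of the pathway (-0.30, adjusted p = 0.0776). Several of these genes lie outside the rule for named genes and were added after their values were seen, to complete the pathway.

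The promoters of these genes were read from RefSeq (GRCm38.p6), since most members of the list rose. The sterol regulatory element written as TCACNCCAC, on either strand, was found in the promoter window of 1 of 16 matched cholesterol synthesis genes (Hmgcs1), against 1.44% of all genes. The letters CCAAT, the box bound by NF-Y, stood on either strand in all 16 of the matched genes, against 41.1% of all genes. Among the 16 are Ebp, which was called lower, and Hmgcs1 and Srebf2, which were not called. Both motifs were chosen after the list's values were known, and a match is a description of the letters. The 200 bases before the start are shown for the 3 genes of the largest rises, with CCAAT or its complement in capitals. Idi1 lies at chr13:8885406-8885605 on the plus strand with matches from -45 to -14 relative to the start, Nsdhl at chrX:72918321-72918520 on the plus strand (-109 to -20) and Msmo1 at chr8:64733579-64733778 on the minus strand (-160 to -55).
Idi1: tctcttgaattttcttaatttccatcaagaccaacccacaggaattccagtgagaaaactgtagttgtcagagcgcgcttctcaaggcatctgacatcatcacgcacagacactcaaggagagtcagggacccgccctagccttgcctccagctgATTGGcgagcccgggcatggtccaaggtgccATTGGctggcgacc
Nsdhl: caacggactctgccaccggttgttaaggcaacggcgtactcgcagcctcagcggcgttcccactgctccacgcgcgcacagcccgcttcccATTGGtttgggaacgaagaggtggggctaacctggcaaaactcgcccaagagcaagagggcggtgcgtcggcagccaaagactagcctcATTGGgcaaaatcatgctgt
Msmo1: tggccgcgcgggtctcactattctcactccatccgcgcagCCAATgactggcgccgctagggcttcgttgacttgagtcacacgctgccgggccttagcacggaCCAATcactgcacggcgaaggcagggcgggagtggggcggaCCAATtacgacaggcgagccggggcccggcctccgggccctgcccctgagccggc

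Fatty acid synthesis genes rose in part. Of 25 measured genes of fatty acid and triglyceride synthesis 10 were called higher and 1 lower, with a median of 0.20. Acss2, which makes acetyl-CoA from acetate, was at 10.36, 9.89 and 9.74 at 6 months and at 11.82, 11.91 and 11.74 at 18 months (1.83, SE 0.17, adjusted p = 8.15e-07). Elovl6, the elongase of saturated chains, was at 9.29, 8.86 and 8.73 and then at 10.47, 10.43 and 10.42 (1.48, SE 0.16, adjusted p = 3.57e-06). Fads2, a desaturase of polyunsaturated chains, was at 6.95, 6.92 and 6.77 and then at 8.38, 8.32 and 8.22 (1.43, SE 0.18, adjusted p = 2.1e-05). These groups did not overlap, and Fads2 was at the same height at 14 months (8.34, 8.28 and 8.29). Scd2 rose by 1.01 (adjusted p = 0.000241) and Acaca, the acetyl-CoA carboxylase, by 0.68 (adjusted p = 0.00446), with 0.93 from its other probe set. Fasn, the fatty acid synthase, was 0.37 higher (adjusted p = 0.0467). Its adjusted p was 0.0301 without 6-month replicate 1, and it was 0.144 and 0.156 without 6-month replicates 2 and 3 and 0.138, 0.097 and 0.108 without 18-month replicates 1, 2 and 3, and repeated quantile normalization and ribosomal centring ended the call too. Scd1, the abundant stearoyl-CoA desaturase, differed by 0.07 (adjusted p = 0.783), and the transcription factors Srebf1 and Mlxipl by 0.02 and -0.20 without a call. Gpam, which starts triglyceride assembly, was at 10.98, 11.19 and 11.17 and then at 10.40, 10.39 and 10.38, and fell by 0.73 (adjusted p = 0.00715).

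**Figure D3:**
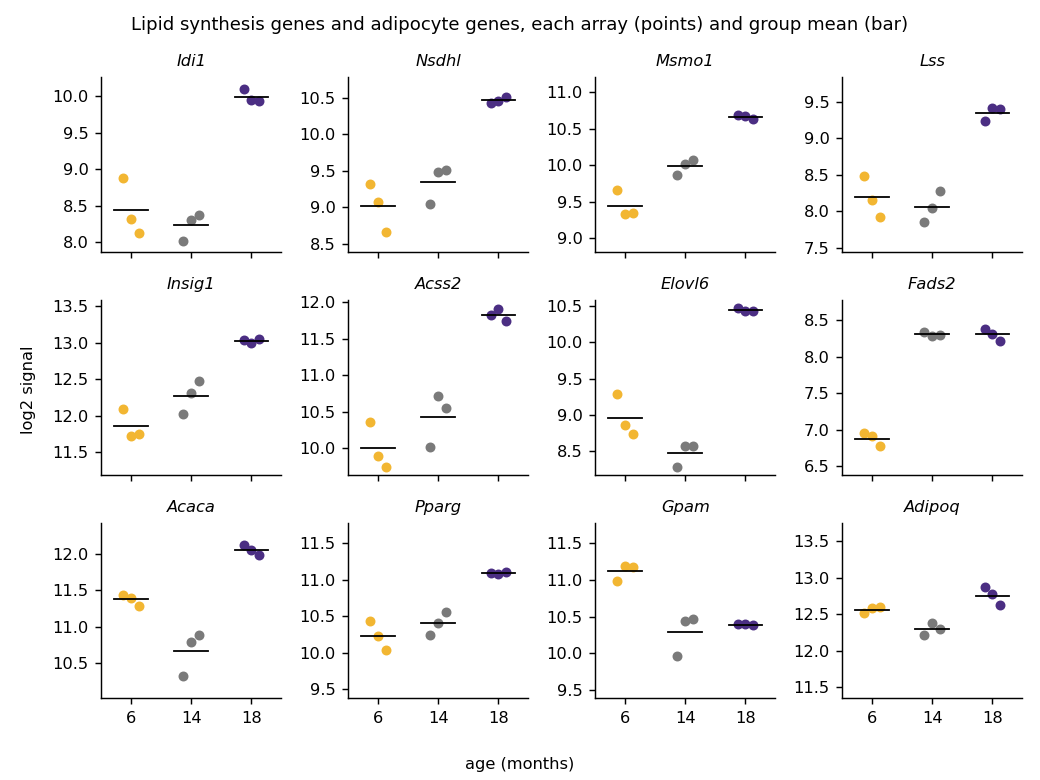
Log2 signal of 12 lipid synthesis and adipocyte genes in each epididymal array (points, 3 at each age) and the group mean (bar), with age in months on the x axis and a y axis of at least 2.4 log2 units set for each gene. Idi1, Nsdhl, Msmo1, Lss, Insig1, Acss2, Elovl6, Acaca and Pparg are highest at 18 months, Fads2 is as high at 14 months, Gpam is lower at 18 than at 6 months and Adipoq differs little.

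Of 12 lipolysis genes Npr1, the natriuretic peptide receptor, was called, lower by 0.83 (it was at 7.12, 7.47 and 7.11 at 6 months, at 6.35, 6.37 and 6.47 at 18 months, and highest at 14 months, from 8.50 to 8.77), while the lipases Pnpla2 (-0.24), Lipe (0.15) and Mgll (0.08) did not pass. Of 23 fatty acid oxidation genes 5 were called higher and 0 lower, with a median of 0.29. That count was 10 after median centring, 1 after ribosomal centring and 12 in a fit of the 6 arrays alone, which was added after the data were seen. Cpt1a, which admits fatty acids to mitochondria, was at 8.89, 8.76 and 8.76 and then at 9.48, 9.41 and 9.36, and rose by 0.61 (SE 0.13, adjusted p = 0.00441, not called after ribosomal centring). Of 70 oxidative phosphorylation genes 6 were called higher and 2 lower (median 0.05), with Uqcrc2 higher by 0.57 (adjusted p = 0.000849) and Ndufa6 by 0.69 (adjusted p = 0.00207) and Cox7a2 lower by 0.67 (adjusted p = 0.00572, not called after ribosomal centring). The higher count was 12 after median centring and 3 after ribosomal centring.

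Mitochondrial ribosome and proteasome genes were called higher in part. Of 35 mitochondrial ribosomal protein genes 9 were called higher and 0 lower (median 0.21), and of 31 proteasome genes 7 were called higher and 0 lower (median 0.24). After median centring these counts were 17 and 15, and after ribosomal centring 5 and 6. Mrps22 was at 7.61, 7.30 and 7.42 at 6 months and at 8.63, 8.49 and 8.23 at 18 months (1.00, SE 0.13, adjusted p = 3.62e-05), and Mrpl13, Mrpl1 and Mrpl16 rose by 0.86, 0.85 and 0.70. Psma2, a subunit of the proteasome core, was at 8.57, 8.30 and 8.27 and then at 9.28, 9.21 and 9.05 (0.80, SE 0.14, adjusted p = 0.000864). In the cap of the proteasome Psmd6 rose by 0.97, Psmd12 by 0.69 and Psmc6 by 0.67. All 31 proteasome genes had a positive log2 fold change, and in 20 of them the arrays of 18 months were above all those of 6 months (background 18.5%). Of 41 cytosolic ribosomal protein genes 0 were called higher and 2 lower (median 0.08), and 6 were called higher after median centring, while 1 was higher and 0 lower without 6-month replicate 1.

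Regulators of adipocyte identity and insulin action moved in both directions. Pparg, the master regulator of adipocytes, was at 10.43, 10.23 and 10.04 at 6 months and at 11.09, 11.08 and 11.11 at 18 months (0.86, SE 0.18, adjusted p = 0.00253). Cebpd, an early factor of adipogenesis, was at 7.92, 8.26 and 8.15 and then at 6.31, 6.17 and 5.98 (-1.96, SE 0.20, adjusted p = 1.73e-06). Cebpa differed by 0.01 (adjusted p = 0.969) and Cebpb by -0.22 (adjusted p = 0.584). Hcar2, a receptor for ketone bodies and nicotinic acid that restrains lipolysis, was at 8.98, 8.99 and 8.99 and then at 7.84, 7.80 and 7.75 (-1.19, SE 0.17, adjusted p = 0.000113), and at 5.40 to 5.78 at 14 months. Of 25 adipogenic factors 1 was called higher and 6 lower (median -0.21), and 4 and 4 after median centring (median -0.03). Egr2 and Klf4, which are also immediate early genes, are among the 6, and the call of Klf4 was lost without any of the 6 arrays (adjusted p = 0.0532 to 0.0912). Of 13 thermogenic genes 3 were called higher, with Ucp1 at the low level given above. Ppargc1a, a coactivator of mitochondrial genes, rose by 1.02 (adjusted p = 4.98e-05), with 0.68 from its other probe set. Cox7a1, a subunit of cytochrome oxidase, rose by 1.29 (adjusted p = 9.45e-06). The third was Cidea, whose call was lost after ribosomal centring and without some single arrays.

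In the insulin signalling list 6 of 21 genes were called lower and 1 higher, with a median of -0.16 that turned to 0.02 after median centring, where 4 were lower and 2 higher (3 and 1 after ribosomal centring). Irs2, an adaptor of the insulin receptor, was at 9.41, 9.96 and 9.79 at 6 months and at 8.16, 8.17 and 8.16 at 18 months (-1.56, SE 0.17, adjusted p = 5.45e-06). Slc2a1, the basal glucose transporter, was at 9.37, 9.59 and 9.60 and then at 8.18, 8.34 and 8.26 (-1.26, SE 0.19, adjusted p = 0.000146), and the hexokinase Hk2 fell by 1.06 (adjusted p = 0.00873). Grb10, an inhibitor of the receptor, rose by 0.65 (adjusted p = 0.00446). The other adaptor Irs1 (0.07), the insulin-responsive transporter Slc2a4 (0.09) and Insr itself (-0.16) were not called, although a second probe set of Insr differed by -0.53 (adjusted p = 0.0108). In each of Irs2, Slc2a1 and Hk2 the 14-month level lay with or below that of 18 months.

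Of 25 antioxidant and glutathione genes 7 were called lower and 1 higher, with a median of -0.13 (0.05 after median centring, with 5 lower and 4 higher, and 4 lower and 0 higher after ribosomal centring). Srxn1, which restores oxidized peroxiredoxins, was at 9.18, 9.69 and 9.54 at 6 months and at 7.71, 7.76 and 7.60 at 18 months (-1.78, SE 0.15, adjusted p = 1.94e-07). Txnrd1, the thioredoxin reductase, was at 10.10, 10.31 and 10.45 and then at 8.997, 9.08 and 9.11 (-1.22, SE 0.15, adjusted p = 1.92e-05). Gpx1 fell by 0.88 (adjusted p = 0.000109) and Gclc, which starts glutathione synthesis, by 0.68 (adjusted p = 0.000767). Catalase (Cat, 0.30) and Sod2 (0.12) were not called. The other genes called lower were Csad and, with calls that were lost without some single arrays, Sod1 and Gpx3, and the member called higher was Gstm1, a glutathione transferase (0.66, adjusted p = 0.0352), whose call was lost without any array but 6-month replicate 1 (adjusted p = 0.0515 to 0.124). Srxn1, Txnrd1, Gpx1 and Gclc were also below the 6-month arrays at 14 months, by 0.82 to 2.19.

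Secreted adipokines changed singly. Of 16 adipokine genes 0 were called higher and 5 lower (median -0.33), namely Retnla, Nnat, Ccl2, Metrnl and Grn. Nnat, an imprinted proteolipid that is abundant in fat, was at 11.71, 11.68 and 11.71 at 6 months and at 10.53, 10.48 and 10.33 at 18 months (-1.26, SE 0.15, adjusted p = 1.84e-05). Metrnl fell by 0.76 (adjusted p = 0.00801), a call that was lost without 18-month replicate 1 (adjusted p = 0.0536). Resistin (Retn) differed by -0.07 (adjusted p = 0.864).

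Immediate early genes were lower at 18 months. Of 25 measured genes 17 were called lower and 0 higher (background 8.08% lower), with a median of -1.32, and in all 25 the 18-month arrays were below every 6-month array (background 23.0%). Scaling left 16 to 18 of them lower. Fosb, a subunit of AP-1, was at 12.44, 12.31 and 12.41 at 6 months and at 9.14, 9.21 and 9.35 at 18 months (-3.15, SE 0.59, adjusted p = 0.00129). Egr2, a zinc finger factor, was at 10.54, 10.38 and 10.39 and then at 7.12, 7.14 and 7.19 (-3.29, SE 0.25, adjusted p = 7.7e-08). Nr4a1, an orphan nuclear receptor, was at 11.77, 11.65 and 11.60 and then at 9.45, 9.35 and 9.46 (-2.25, SE 0.32, adjusted p = 8.63e-05). At 6 and at 18 months these genes varied little from array to array. The SE of Fosb, which pools the error of all 18 arrays, was larger than the spread of the 6 arrays shown.

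Atf3, a stress-induced repressor (-2.18, adjusted p = 2.83e-06), Ier2 (-2.26, adjusted p = 0.000524) and Jun, the partner of Fos in AP-1 (-1.19, adjusted p = 0.000468), fell as well. Fos was at 10.59, 10.63 and 10.47 and then at 9.92, 9.84 and 9.78 (-0.72, adjusted p = 0.204), and Egr1 at 10.78, 10.94 and 10.92 and then at 9.73, 9.70 and 9.80 (-1.14, adjusted p = 0.0722). Neither overlapped between the ages, and both were called in a fit of the 6 arrays alone, where 24 of the 25 genes were lower. At 14 months the levels were lower still for most of the list, with Fosb at 6.68, 8.85 and 9.08 and Fos at 6.50, 7.11 and 7.46, and replicate 1 of that age was the lowest of its group for Fosb, Fos, Egr1 and Nr4a1. The order and time of day at which the age groups were killed and digested are not given in the sources used here, and their part in this difference cannot be told apart from that of age.

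The cAMP response element TGACGTCA was found, on either strand, in the promoter windows of 3 of 19 matched immediate early genes (Btg2, Dusp1 and Maff), against 2.03% of all genes, and in 0 of 19 matched cytokine genes. The AP-1 site TGAGTCA was found in 0 of 19 immediate early genes and in 6 of 19 cytokine genes (Cxcl10, Il1a, Il1rn, Il6, Lif and Tnfaip3), against 5.95% of all genes. Btg2, an antiproliferative gene, fell by 1.82 (adjusted p = 3.92e-07) and Maff, a small Maf factor, by 1.89 (adjusted p = 6.2e-06), while Dusp1 differed by -0.56 without a call. The 200 bases before the start of the 2 genes that were called are shown with the element in capitals, Btg2 at chr1:134079156-134079355 on the minus strand (match at -166) and Maff at chr15:79347320-79347519 on the plus strand (match at -29, 1 of its 3 windows).
Btg2: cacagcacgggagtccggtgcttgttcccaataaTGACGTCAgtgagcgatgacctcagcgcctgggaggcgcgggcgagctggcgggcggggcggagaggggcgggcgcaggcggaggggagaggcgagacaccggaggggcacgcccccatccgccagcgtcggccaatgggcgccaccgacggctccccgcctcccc
Maff: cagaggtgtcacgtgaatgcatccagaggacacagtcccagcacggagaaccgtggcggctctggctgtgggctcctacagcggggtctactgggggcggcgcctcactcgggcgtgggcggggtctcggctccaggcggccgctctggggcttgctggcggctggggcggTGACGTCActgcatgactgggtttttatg

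Inflammatory cytokine and NF-kB target genes fell with them. Of 28 genes 17 were called lower and 1 higher, with a median of -1.08, and scaling or the loss of 6-month replicate 1 left 16 lower. Cxcl2, a neutrophil chemokine, was at 10.42, 10.17 and 10.18 at 6 months and at 7.78, 7.75 and 7.49 at 18 months (-2.58, SE 0.23, adjusted p = 4.03e-07). Il6, the cytokine interleukin 6, was at 8.05, 8.11 and 7.95 and then at 6.09, 5.61 and 5.51 (-2.30, SE 0.29, adjusted p = 2.65e-05). Nfkbiz, an inducible cofactor of NF-kB, was at 10.26, 10.49 and 10.50 and then at 7.53, 7.53 and 7.60 (-2.86, SE 0.22, adjusted p = 9.92e-08). The ages did not overlap in any of them. Il6 and Cxcl2 were lower again at 14 months, at 3.55 to 3.91 and 4.69 to 5.17.

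The same list held feedback inhibitors that fell, Socs3 by 1.95 (0.91 on its other probe set), Tnfaip3 by 1.61 and Nfkbia by 1.47. The upstream cytokines Tnf and Il1b fell by 1.13 (adjusted p = 0.000395) and 1.11 (adjusted p = 0.000208). Ccl11, which encodes the eosinophil chemokine eotaxin, was the member called higher (0.94, adjusted p = 0.00969), with an adjusted p of 0.0575 without 6-month replicate 3 and 0.056 without 18-month replicate 1. Il1rn (-0.44), Lif (-0.29), Osm (-0.28), Csf3 (-0.14) and Saa3 (0.22) were not called. Il1b, Tnf and Ccl3 are made mainly by myeloid cells. Between 6 and 14 months the median log2 fold change was -1.21 for this list and 1.89 for the macrophage markers below. The part of myeloid cells in the fall was not tested.

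**Figure D4:**
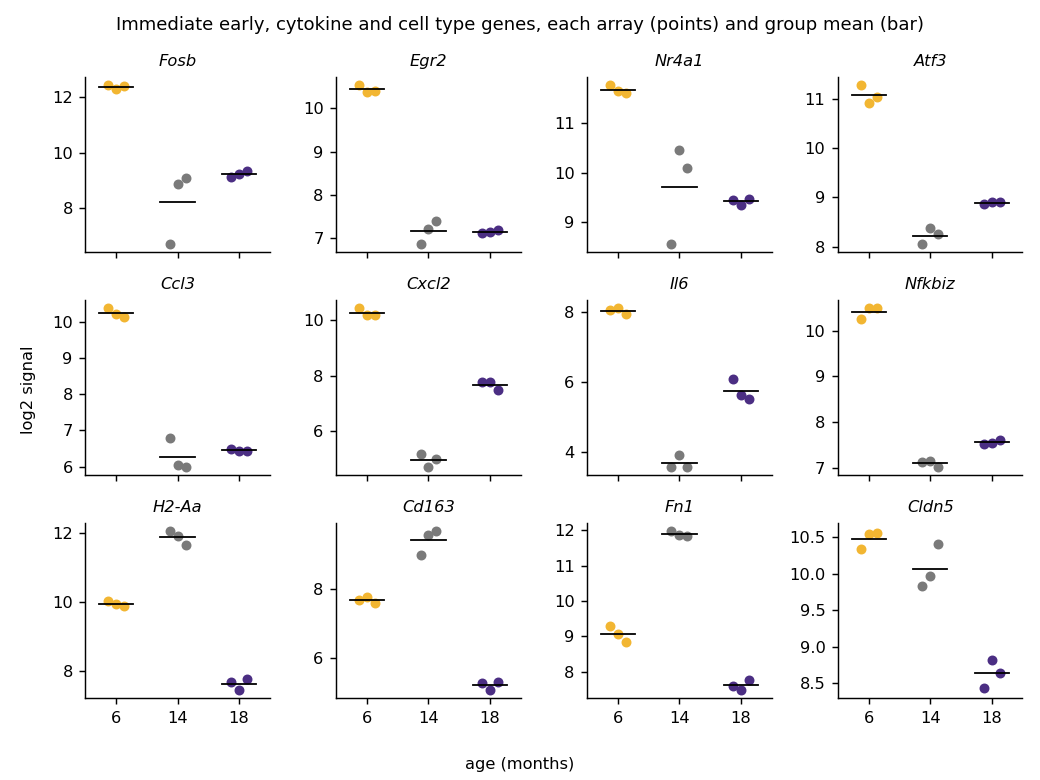
Log2 signal of 12 immediate early, cytokine and cell type genes in each epididymal array (points, 3 at each age) and the group mean (bar), with age in months on the x axis and a y axis of at least 2.4 log2 units set for each gene. All 12 are lower at 18 than at 6 months without overlap, and at 14 months the immediate early and cytokine genes are low while H2-Aa, Cd163 and Fn1 are at their highest.

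Macrophage markers fell from 6 to 18 months. Of 20 markers 11 were called lower and 1 higher (background 8.08% and 8.05%), with a median of -1.20, and neither scaling nor the loss of 6-month replicate 1 changed the count. Their summed linear signal was 4074 to 5702 in the 6-month arrays and 2336 to 2542 in the 18-month arrays. In such bulk RNA fewer cells of a type and less RNA per cell cannot be told apart. Cd163, a scavenger receptor of resident macrophages, was at 7.66, 7.76 and 7.59 at 6 months and at 5.27, 5.05 and 5.29 at 18 months (-2.47, SE 0.27, adjusted p = 4.48e-06). Csf1r, the receptor for the macrophage growth factor, was at 8.31, 8.28 and 8.21 and then at 6.60, 6.37 and 6.51 (-1.77, SE 0.19, adjusted p = 4.79e-06). Adgre1, a surface receptor by which mouse macrophages are recognized, was at 7.38, 7.05 and 7.04 and then at 5.63, 5.73 and 5.82 (-1.42, SE 0.22, adjusted p = 0.000201). No 18-month array reached a 6-month array in these genes, and all of them were highest at 14 months, where Adgre1 was at 9.76, 9.20 and 9.03.

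The list was not uniform. Mrc1, the mannose receptor, fell by 1.79, Lyz2 by 1.56 and the complement subunits C1qb and C1qc by 1.37 and 1.20. Cd68 (-0.53, adjusted p = 0.0706), Itgax (-0.30), Trem2 (-0.11) and Fcgr1 (-0.05) were not called, and Cd9, a tetraspanin of lipid-associated macrophages that other cells carry as well, was 0.77 higher (adjusted p = 0.0109, but 0.0766 without 6-month replicate 3 and 0.0653 without 18-month replicate 1). Of 13 complement genes 5 were called lower and 1 higher (median -0.27), with 5 lower under each scaling. Among them the receptors for complement fragments C5ar1 and C3ar1 fell by 2.17 (adjusted p = 2.16e-07) and 1.72 (adjusted p = 2.07e-05).

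Class II antigen presentation genes gave the lowest median of all lists. Of 9 genes 6 were called lower and 0 higher, with a median of -1.74, and the count was the same under the 3 other scalings and without 6-month replicate 1 (medians of -1.56 to -1.71). H2-Aa, the alpha chain of I-A, was at 10.03, 9.94 and 9.87 at 6 months and at 7.70, 7.44 and 7.78 at 18 months (-2.31, SE 0.13, adjusted p = 3.78e-09). Cd74, the invariant chain, was at 9.37, 9.27 and 9.22 and then at 7.02, 6.97 and 7.18 (-2.23, SE 0.13, adjusted p = 4.6e-09). H2-Ab1 fell by 2.30, H2-Eb1 by 2.09, the costimulator Cd86 by 1.74 and the protease Ctss, which trims the invariant chain, by 1.22. The transactivator Ciita (-0.06), H2-DMa (0.03) and H2-Oa (0.06) were not called. At 14 months H2-Aa stood at 12.05, 11.92 and 11.66, so that the 18-month level was 4.24 below it (SE 0.13, adjusted p = 3.7e-13).

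CCAAT stood in the promoter windows of 4 of 5 matched genes of this list, against 41.1% of all genes, and 9 genes were measured. Of the 4 (H2-Aa, H2-DMa, H2-Eb1 and H2-Oa), H2-Aa and H2-Eb1 fell and the others did not pass. The 200 bases before the start of the pair that fell are shown with the box in capitals, H2-Aa at chr17:34287824-34288023 on the minus strand (match at -48) and H2-Eb1 at chr17:34305667-34305866 on the plus strand (matches from -59 to -35).
H2-Aa: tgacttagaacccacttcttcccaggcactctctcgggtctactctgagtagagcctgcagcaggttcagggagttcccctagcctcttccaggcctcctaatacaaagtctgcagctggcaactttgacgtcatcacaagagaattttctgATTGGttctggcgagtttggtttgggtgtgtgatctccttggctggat
H2-Eb1: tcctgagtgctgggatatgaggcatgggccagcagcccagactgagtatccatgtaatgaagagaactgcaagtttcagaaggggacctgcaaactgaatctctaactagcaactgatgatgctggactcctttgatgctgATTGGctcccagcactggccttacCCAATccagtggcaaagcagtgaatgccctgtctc

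Endothelial markers fell together. Of 17 genes 13 were called lower and 0 higher, with a median of -0.93 (11 to 12 lower under other scalings and 12 without 6-month replicate 1), and their summed linear signal was 6531 to 6793 at 6 months and 3612 to 3995 at 18 months. Cldn5, a tight junction protein, was at 10.33, 10.54 and 10.55 at 6 months and at 8.43, 8.82 and 8.65 at 18 months (-1.84, SE 0.19, adjusted p = 2.07e-06). Lyve1, a receptor of lymphatic endothelium that some macrophages share, was at 7.49, 7.47 and 7.57 and then at 5.93, 5.94 and 5.92 (-1.58, SE 0.13, adjusted p = 2.32e-07). Pecam1 was at 8.78, 8.85 and 8.74 and then at 7.75, 7.76 and 7.69 (-1.06, SE 0.12, adjusted p = 4.49e-06). The 18-month arrays were below all 6-month arrays in 15 of the 17 genes (background 23.0%). Vwf (-0.55), Emcn (-0.43), Sox18 (-0.04) and Rgcc (0.11) did not pass.

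Genes of hemostasis and of the matrix were lower as well, and the cells they came from were not tested. Of 11 hemostasis genes 8 were called lower and 0 higher (median -0.90), among them F13a1 by 1.79, the urokinase receptor Plaur by 1.78, Thbs1 by 1.42, the protein C receptor Procr by 1.42 and Plau by 1.03. F3, tissue factor, ranged from 8.89 to 9.13 in the younger mice, with an overlapping range of 8.72 to 9.19 in the older, and did not pass (-0.04, adjusted p = 0.901). Of 33 collagen and matrix genes 15 were called lower and 0 higher (median -0.46), but 8 lower and 2 higher after median centring and 7 lower and 1 higher after ribosomal centring. Fn1, fibronectin, was at 9.30, 9.07 and 8.85 and then at 7.59, 7.46 and 7.77 (-1.46, SE 0.19, adjusted p = 3.19e-05). Timp2, an inhibitor of matrix proteases, was at 9.17, 9.27 and 9.09 and then at 8.27, 8.09 and 8.003 (-1.06, SE 0.11, adjusted p = 4.23e-06). Eln fell by 0.93 and Col3a1 by 0.67, while Col1a1 was at 10.89, 10.66 and 10.60 and then at 11.58, 11.68 and 11.84, above all 6-month arrays (0.98, adjusted p = 0.052).

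Other cell types showed fewer calls. Of 17 progenitor and fibroblast markers 2 were called higher, Fap by 1.22 (adjusted p = 0.000682) and Dpt by 0.59 (adjusted p = 0.00177), and 3 lower, with the defining marker Pdgfra at -0.51 (adjusted p = 0.184). Of 14 mesothelial markers 5 were called lower (3 under each other scaling), with Wt1 at 6.82, 7.04 and 6.81 at 6 months and at 5.86, 5.96 and 5.89 at 18 months (-0.98, SE 0.18, adjusted p = 0.000987) and Msln lower by 0.82. Of 10 smooth muscle and pericyte markers 1 was called higher and 2 lower (median -0.38), and all but Des had a negative log2 fold change. Des, an intermediate filament of muscle cells, was at 6.02, 6.04 and 5.99 and then at 7.12, 7.10 and 6.94 (1.04, SE 0.16, adjusted p = 0.00019), whereas the pericyte gene Notch3 fell by 0.93 and Acta2 differed by -0.38 without a call. Of 5 measured erythroid markers 2 were called lower and 0 higher, with a median of -0.96 (-0.41 without 6-month replicate 1). Alas2, the erythroid heme synthesis gene, was at 8.58, 7.26 and 7.34 and then at 6.19, 6.00 and 6.00 (-1.66, SE 0.33, adjusted p = 0.00177). The other, Epb42, lost its call without 6-month replicate 1 and under further alternatives. Of 17 T and NK cell markers and 16 B and plasma cell markers 1 each was called lower and 0 higher, with medians of -0.19 and -0.14 that turned to 0.00 and 0.05 after repeated quantile normalization. None of 27 cell cycle genes was called by limma (2 higher without 6-month replicate 1), with a median of -0.13 that turned to 0.05 after median centring.

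**Figure D5:**
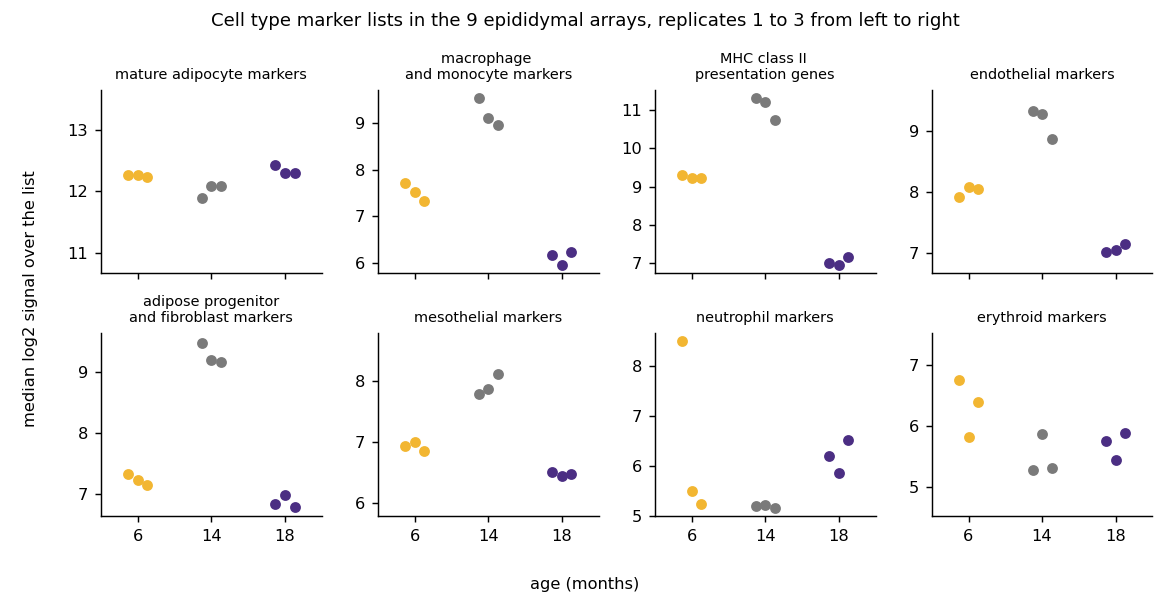
Median log2 signal over the members of 8 lists in each of the 9 epididymal arrays, replicates 1 to 3 from left to right within each age, with age in months on the x axis and a y axis of at least 3 log2 units set for each list. Adipocyte markers differ little (12.24 to 12.27 at 6 months and 12.31 to 12.44 at 18 months). Macrophage, MHC class II, endothelial, progenitor and mesothelial lists are lowest at 18 and highest at 14 months. The array of 6-month replicate 1 is apart for neutrophil markers (8.49).

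Clock genes were measured because the hour of collection is not given. Of 18 genes 5 were called lower and 1 higher, with a median of -0.08 that turned to 0.10 after median centring (4 lower and 4 higher). Nr1d1, a repressor of the clock, was at 11.72, 11.67 and 11.67 at 6 months and at 10.78, 10.83 and 11.02 at 18 months (-0.81, SE 0.13, adjusted p = 0.000318). Per1 fell by 0.95 and Per2 by 0.84, and Arntl, whose transcript peaks opposite to theirs, differed by 0.23 (adjusted p = 0.226). Nfil3, a repressor of clock output, fell by 1.24. The member called higher was Dbp, an output gene in phase with Nr1d1, at 7.67, 7.21 and 7.21 and then at 7.99, 7.89 and 7.72 (0.50, adjusted p = 0.0184). Its call was lost without 6-month replicate 2 or 3 or 18-month replicate 1 or 2 (adjusted p = 0.0624 to 0.0952). The part of the hour of collection in these differences was not tested.

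Stress genes gave few calls, and more interferon-stimulated genes were called higher than lower. Of 17 heat shock chaperone genes 1 was called higher and 2 lower, Dnajb1 by 1.90 (10.43, 10.49 and 10.39 at 6 months and 8.48, 8.52 and 8.62 at 18 months, adjusted p = 6.32e-08) and the cochaperone Bag3 by 0.98, while Hspa1a, the inducible chaperone, was at 7.97, 7.87 and 7.91 and then at 7.79, 7.88 and 8.04 (-0.01, adjusted p = 0.966). Of 25 genes of the unfolded protein and integrated stress response 3 were called lower and 1 higher (median -0.07, 0.11 after median centring), and the endoplasmic reticulum chaperone Hspa5 differed by -0.17 (adjusted p = 0.245). Of 19 interferon-stimulated genes 4 were called higher and 1 lower (median 0.30). The higher count was 9 after median centring or in a fit of the 6 arrays alone. It was 5 after repeated quantile normalization, and 3 after ribosomal centring or without 6-month replicate 1. Among the 4, Psmb8 lost its call when any 1 of the 6 arrays was left out, and Ifit3 when any but 6-month replicate 1 was. Gbp3, an interferon-induced GTPase, was at 7.44, 7.38 and 7.23 and then at 8.43, 8.28 and 8.40 (1.02, SE 0.16, adjusted p = 0.000176), Ddx58, the RNA sensor RIG-I, rose by 0.69, and Rsad2, an antiviral enzyme, fell by 0.89. Among cyclin-dependent kinase inhibitors Cdkn2b was at 7.86, 7.54 and 7.43 and then at 8.44, 8.46 and 8.35 (0.80, SE 0.16, adjusted p = 0.00207), and Cdkn2a differed by 0.04 (adjusted p = 0.862), in a list of 12 senescence genes with 2 called higher and 1 lower.

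The 18-month change was then compared with that in bone marrow adipocytes of the same mice, by the difference of the 2 changes. This difference was called for 1679 of 19938 genes (8.42%), positive for 967 (4.85%) and negative for 712 (3.57%), and for 8.51% of probe sets. In the cytokine list it was negative for 13 of 28 genes, in the immediate early list for 9 of 25, in the macrophage list for 9 of 20 and in the class II list for 6 of 9, and in the cholesterol list it was positive for 5 of 20. Cd163 fell by 2.47 in epididymal adipocytes and was 1.48 higher at 18 months in bone marrow (difference -3.95, adjusted p = 4.82e-06). Acss2 changed by 1.83 and 0.01 (difference 1.82, adjusted p = 0.000141), Irs2 by -1.56 and -0.17 (difference -1.39, adjusted p = 0.00171) and Col1a1 by 0.98 and -1.25 (difference 2.23, adjusted p = 0.00646). For other genes no difference was detected, as for Atf3 (-2.18 and -1.78, adjusted p = 0.523), Jun (-1.19 and -1.26, adjusted p = 0.924) and Cdh5 (-1.08 and -1.69, adjusted p = 0.336), with SEs of the difference of 0.32, 0.28 and 0.35. Endothelial markers were called lower in bone marrow for 12 of 17 genes (background 5.16%), where their median was -0.62, and the difference was negative for 4 and positive for 1. Cytokine genes were called lower in bone marrow for 9 of 28 and higher for 3. Immediate early genes were called lower there for 5 of 25 and higher for 0, and collagen and matrix genes lower for 13 of 33 and higher for 1. Class II genes were called higher in bone marrow for 3 of 9 (background 3.41%). In all 1708 genes (8.57%) were called in bone marrow.

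The 14-month arrays show whether a level at 18 months was reached earlier. Medians of the list members, 14 against 6 months and 18 against 14 months, were -0.14 and 0.94 for cholesterol synthesis, -2.01 and 0.67 for immediate early genes, 1.89 and -2.88 for macrophage markers, 1.82 and -3.05 for class II genes and 0.82 and -1.62 for endothelial markers. Progenitor and fibroblast (1.65 and -1.72), mesothelial (0.95 and -1.38) and smooth muscle and pericyte markers (0.67 and -1.04) had the same signs. So did B and plasma cell (0.88 and -1.06) and T and NK cell markers (0.29 and -0.51). Neutrophil (-1.17 and 1.06) and erythroid markers (-0.93 and 0.07) had the opposite signs. The neutrophil list stood at a median level of 8.49, 5.50 and 5.24 in the 6-month arrays and 5.20, 5.23 and 5.16 in the 14-month arrays. Its value of -1.17 therefore depends on 6-month replicate 1. The comparisons between ages share arrays with each other and with the one above, so they are given as values only. Against 6 months 3498 genes (17.5%) were called at 14 months, with 16 of 20 macrophage markers higher (background 9.97%) and 21 of 25 immediate early genes lower (background 7.58%). Against 14 months 4933 genes (24.7%, and 24.1% of probe sets) were called at 18 months. At that age 17 of 20 cholesterol synthesis genes were called higher than at 14 months (background 12.1%), 18 of 20 macrophage markers and 8 of 9 class II genes were called lower (background 12.6%), and of the immediate early genes 12 were called higher and 2 lower. Adipocyte markers, with a median of 0.36 between 14 and 18 months, were called higher for 5 of 23 and lower for 0. In the remaining lists the genes called between 6 and 18 months were 1 higher and 3 lower of 25 lysosome and autophagy genes (7 and 0 after median centring), 1 and 1 of 20 genes of branched-chain amino acid breakdown, 2 and 3 of 11 fat expansion genes (Nnat among the lower) and 0 of 11 skeletal muscle markers.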

How the data were processed

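RNA of floated adipocytes was hybridized to whole-transcript mouse gene arrays. According to the study's methods the authors corrected, quantile normalized and log2 transformed the signals (gcRMA, in Partek), and the deposited table holds log2 values. No further normalization was applied here, and no low values were removed. The depth of an array is not defined, so precision is limited by the number of arrays.

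Of 35556 probe sets 23410 name a gene. A gene with several probe sets was represented by that with the highest mean, and probe sets that name several genes were tested but not used for genes, which left 19938 genes. All 18 arrays entered a limma fit of group means (limma 3.58.1, R 4.3.3, tables in Python 3.11.15) with contrasts for 18 against 6 months, 18 against 14 months and the difference from bone marrow, and p-values were adjusted by the Benjamini-Hochberg method over the 23410 probe sets. The script was tested on simulated data. Replicates are pools, and p-values measure the spread between pools.

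The 40 gene lists (798 genes, 74 entries without a probe set of their own) and the members were chosen with earlier results of these data known. Named genes were the 15 largest rises and 15 largest falls among called genes whose arrays did not overlap between the ages (predicted genes passed over), the first 3 genes written in each list and up to 5 further called members by size of change. The others were chosen after their values were seen. Alternatives were other sets of arrays, array weights, 3 scalings, stricter limits, probe set choice, ordinary analysis of variance, a replicate block and the loss of each array.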

Additional observations from a re-analysis of the deposited data

Results flagged for a closer look

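Of the 15 largest rises and the 15 largest falls in epididymal adipocytes, 28 of 30 differed by limma from the 18-month change in bone marrow adipocytes of the same mice (8.42% of all genes). The genes were chosen for their epididymal change, which is part of the difference, so the count is a description. The epididymal change minus that in bone marrow, on the log2 scale, was positive for Alb (3.67), Sycp3 (3.61), Il13ra2 (2.87), Nxf3 (2.51), Ct55 (2.38), Cdkl4 (2.56), Tfr2 (1.66), Prrx1 (2.70), Chrna5 (1.96), Hephl1 (1.87), Sorbs2 (2.31), Prune2 (1.71), Acss2 (1.82), Rpph1 (2.50) and Gldc (1.78). It was negative for Eid3 (-4.69), Ccl3 (-2.76), Retnla (-3.27), Hilpda (-2.65), Egr2 (-3.72), Adamts4 (-2.82), Nfkbiz (-2.29), Marcksl1 (-2.51), Lilr4b (-2.27), Fabp9 (-2.68), Cd14 (-2.06), Apold1 (-3.01) and Ptgs2 (-1.41). Fosb and Cxcl2 were the genes for which the difference did not pass.

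Probe sets that name no gene lay outside the comparisons above. Of 12146 such probe sets 1086 were called lower at 18 months (8.94%, against 8.01% of those that name a gene) and 295 higher (2.43% against 8.22%), with a median log2 fold change of -0.16. After median centring 671 were lower and 624 higher, with a median of 0.02.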

How the results depend on the processing

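The 18 against 6 month comparison called 3799 probe sets, 1924 higher and 1875 lower. At an adjusted p under 0.01 it called 1901 (934 and 967), with a fold of 2 added 563 (203 and 360), in a fit of the 6 arrays alone 5834 (2940 and 2894), with array weights 7458 (3604 and 3854), after ribosomal centring 1872 (1126 and 746), and after median centring 3945 higher and 937 lower. Leaving out 1 array gave 2129 (without 18-month replicate 1) to 3996 (without 6-month replicate 1), with 2532 and 2251 without 6-month replicates 2 and 3 and 2379 and 2905 without 18-month replicates 2 and 3. The higher count then ranged from 995 to 2058 and the lower from 1122 to 1938. The difference from bone marrow was called for 1993 probe sets, 739 at an adjusted p under 0.01, 803 with a fold of 2, and 726 after ribosomal centring, where 38.8% of calls were positive against 59.0% as deposited and 79.1% after median centring. Leaving out 1 array gave 1094 (epididymal 18-month replicate 1) to 3014 (bone marrow 6-month replicate 3), with 1299, 1259, 1166 and 1270 without epididymal 6-month replicates 2 and 3, epididymal 18-month replicate 2 and bone marrow 18-month replicate 3. Against 14 months 5647 probe sets were called, 3742 at an adjusted p under 0.01, 1442 with a fold of 2, 8860 with array weights and 9516 after median centring, and 4212 to 5040 without 1 array. There 48.3% of calls were higher, and 81.2%, 82.2% and 63.7% after median centring, ribosomal centring and repeated quantile normalization. List medians that turned from negative to positive were, after median centring, those of skeletal muscle (0.12), clock (0.10), unfolded protein response (0.11), heat shock (0.12), senescence (0.14), antioxidant (0.05), insulin (0.02), cell cycle (0.05), neutrophil (0.08) and B cell genes (0.04), after quantile normalization those of skeletal muscle (0.10), neutrophil (0.09), B cell (0.05) and T and NK cell genes (0.00014537), and after ribosomal centring that of senescence genes (0.01). The cause was not tested, except that fewer arrays enter when 1 is left out. No label ties replicate numbers to animals, and deviations of same-numbered arrays correlated at 0.14, 0.07 and 0.09 between the ages and at -0.14 to 0.15 between the depots of an age, so the numbers were not taken as pairs. The replicate block called 3751 probe sets (2043 for the difference from bone marrow and 5612 against 14 months), and a block within each age, added after the data were seen, called 1730 for the difference from bone marrow. Of 202 called genes that were examined singly 145 kept the call under all alternatives run for them (17, or 16 for genes below the median level), 50 lost it without 1 array, and no value reversed.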

Other observations

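The following families of genes that share a symbol stem were chosen after their values were seen. Of 347 zinc finger genes named Zfp, many of which encode DNA-binding repressors, 96 were called higher and 12 lower by limma, with a median log2 fold change of 0.16 against -0.06 over all genes (background 8.05% higher and 8.08% lower). The counts were 139 and 8 after median centring, 67 and 5 after ribosomal centring, 122 and 10 after repeated quantile normalization and 93 and 13 without 6-month replicate 1. Of 51 small nucleolar RNA genes, whose products guide the modification of ribosomal RNA, 0 were called higher and 13 lower, with a median of -0.46, and the scalings left 9 to 11 lower and up to 2 higher (26 lower in a fit of the 6 arrays alone). Olfactory receptor genes, most of which are not expressed in fat, are near the bottom of the scale with a median level of 3.58 at 6 months and 3.47 at 18 months. Of 1027 of them 2 were called higher and 34 lower (median -0.11), but 15 and 2 (median 0.07) after median centring and 9 and 5 (median 0.03) after quantile normalization.

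Alb and Sycp3 rose without genes that usually accompany them, which were also picked after the values were seen. Of the liver-secreted proteins Ttr differed by -0.21 (adjusted p = 0.306), Apoa1 by -0.10 (adjusted p = 0.687), Apoa2 by -0.26, Fgb by 0.23, Ahsg by 0.23 and Afp by 0.11, and none was called. Of the genes of meiosis and the germ line Sycp1 differed by -0.28, Sycp2 by 0.09, Syce1 by 0.12, Stra8 by -0.16 and Ddx4 by 0.09, and none was called.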
